A study of Mus musculus with 2 samples.

Results

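Hypoxia and glycolysis genes were compared between fractions of the mouse mammary carcinoma line 4T1 (BALB/C strain), which was grown in culture and sorted by the ALDEFLUOR assay into populations with high (ALDH-positive) and low (ALDH-negative) aldehyde dehydrogenase activity. For each fraction, mRNA was read on a single one-colour Agilent array with probes of 60 bases. The 42 members were chosen by name as enzymes of glycolysis, transporters of glucose and lactate, regulators of glycolytic flux, subunits and regulators of the hypoxia-inducible factors (HIFs), and other HIF target genes. The array files held 41 of the 42 names, on 70 probes and 80 spots, among 24325 named genes. Of these, 40 members were measured, that is, had a probe well above background on at least 1 array, among 14882 measured genes.

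Both populations came from untreated cultures, and the labels name no change in oxygen. The sample labels call them cancer stem cell (4T1, S) and anti cancer stem cell (4T1, NS). That the first is the ALDH-positive and the second the ALDH-negative population rests on the series' design text and the study's methods. The cells come from 1 line and were sorted for enzyme activity, not for oxygen or HIF state. No array was repeated, so there is no p-value and no spread between cultures, and every difference below is between 2 arrays. In bulk RNA, a change in the share of cells that express a gene and a change in RNA per cell cannot be told apart.

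HIFs are dimers of an oxygen-regulated alpha subunit (HIF-1α from *Hif1a*, HIF-2α from *Epas1*) and a stable beta subunit. In the presence of oxygen, prolyl hydroxylases (*Egln1*, *Egln3*) mark the alpha subunit for the VHL ubiquitin ligase, so most of the control acts on the protein and not on its mRNA. When the alpha subunit accumulates, the dimer binds a short DNA core in target promoters and raises the mRNAs of most glycolytic enzymes and of genes for pH control, mitophagy, angiogenesis and collagen modification. Tumour lines such as 4T1 commonly keep a high glycolytic rate in oxygen as well.

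*Car9* was the only member that passed the selection. It encodes carbonic anhydrase 9, a membrane enzyme of extracellular pH control and a classic HIF-1 target. The *Car9* probe (NM_139305, chr4:43526518-43526577 on NCBI37) gave a normalized signal of 1715 for ALDH-negative cells and 2688 for ALDH-positive cells. The log2 ratio, ALDH-positive minus ALDH-negative, was 0.65 ± 0.20. The error given here and below is the scanner's own error of both signals combined and holds no variation between cultures. The selection was that of the study's methods, a Z-score of at least 2.0 with a ratio of at least 1.5 for higher genes and a Z-score of at most -2.0 with a ratio of at most 0.75 for lower genes. The Z-score sets a log2 ratio against the 250 probes on either side in mean signal, and that of *Car9* was 3.37. *Car9* was not selected when the Z-score was taken over all probes at once, which left 0 members higher. Thus 1 of 40 measured members was higher and 0 were lower, where 1.37% of all measured genes were higher and 2.3% lower, so the members' share was close to that of the array. Of all measured genes, 660 had a larger log2 ratio than *Car9*. The 127 measured probes within 8 rows and columns of the *Car9* spot had a median log2 ratio of 0.03.

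Most of the other members showed small ratios above 0. The median log2 ratio was 0.16 over the 40 measured members and 0.04 over all measured genes. It lay above 0 for 30 of the 40 members, or 75%, against 59.5% of all measured genes. A total of 13 members lay above 0 and 1 lay below 0 by more than the scanner error, whereas 20.9% and 13.3% of all measured genes did so. On the Z-score scale, 16 members exceeded 1, or 40.0%, against 13.9% of all measured genes. These counts describe 2 arrays and are not a test of the group.

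**Figure D1:**
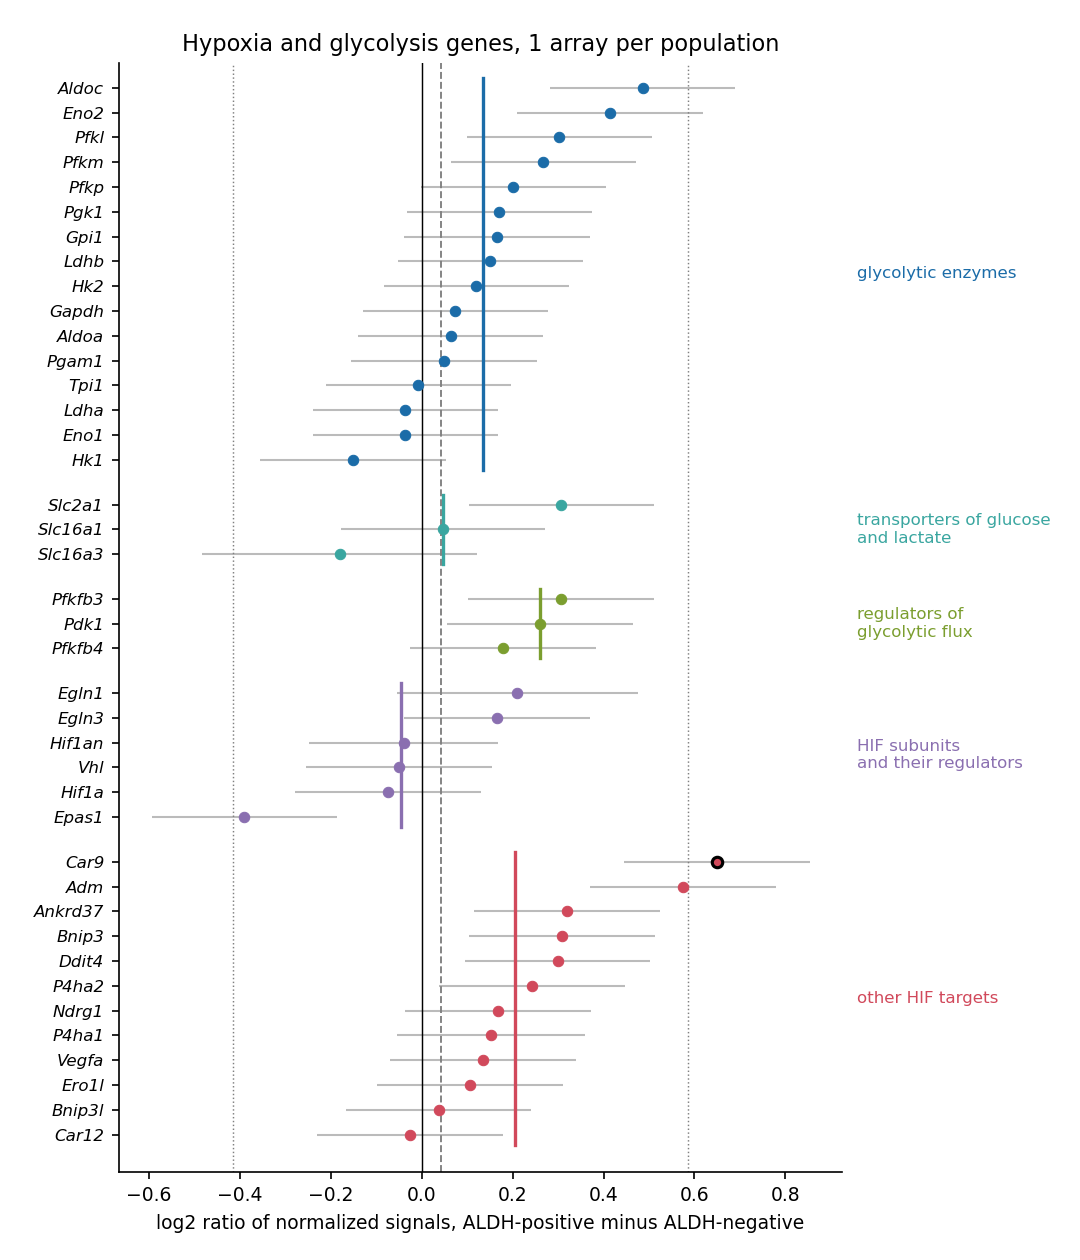
Log2 ratio of normalized signals (ALDH-positive minus ALDH-negative) of the 40 measured members by role, with the scanner error as bars. Coloured lines mark the median of each role, the dashed line the median of all measured genes (0.04), the dotted lines the ratio limits of 1.5 and 0.75, and the black ring the 1 selected gene, *Car9*. Other HIF targets lie mostly to the right, with 11 of 12 above 0.

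By role, the median log2 ratio was 0.21 for the 12 other HIF targets, 0.14 for the 16 measured glycolytic enzymes, 0.26 for the 3 regulators of glycolytic flux, 0.05 for the 3 measured transporters and -0.04 for the 6 HIF subunits and their regulators. The median of the other HIF targets was 0.07 above that of the glycolytic enzymes, and with 1 array per population no error can be given for this difference. Without *Car9* the median of the other HIF targets was 0.17. The 30 measured further HIF targets described below had a median of 0.08, which is under that of the glycolytic enzymes. The median Z-score was 1.016 for the other HIF targets and 0.74 for the glycolytic enzymes, beside 0.17 over all measured genes. The transporter median turned to -0.04 and the median of the HIF subunits to 0.00 when the arrays were scaled by a 75th percentile shift, while the medians of the other 3 roles stayed above 0 under both scalings.

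Among the other HIF targets, *Adm* came next to *Car9*. It encodes adrenomedullin, a secreted vasodilator peptide, and its probe (NM_009627) read 335 on the ALDH-negative array and 499 on the other. The log2 ratio was 0.57 ± 0.20 with a Z-score of 2.38, and the ratio of 1.49 fell just short of the limit of 1.5. *Adm* passed the selection when the 75th percentile shift replaced quantile normalization, with a log2 ratio of 0.60.

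*Ankrd37*, an ankyrin repeat gene and HIF-1 target, read 409.8 and 511 (ALDH-negative first, here and below), a log2 ratio of 0.32 ± 0.20. *Bnip3*, a mitochondrial receptor for mitophagy, read 6814 and 8437, a log2 ratio of 0.31 ± 0.20. Neither passed the selection. Of the 2 other *Bnip3* probes, which bind further along the same transcript (NM_009760), 1 read 82.9 and 103 with a log2 ratio of 0.32 ± 0.21, and the other read 4729.8 and 4535 with -0.06 ± 0.20. The 3 probes of *Bnip3* therefore did not give a single ratio.

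The rest of this role lay closer to 0. *Ddit4*, an inhibitor of mTORC1 signalling, had a log2 ratio of 0.30 ± 0.20. *P4ha2* and *P4ha1*, alpha subunits of the prolyl hydroxylase of collagen, had log2 ratios of 0.24 ± 0.20 and 0.15 ± 0.21, the latter from signals of 169 and 188. *Ndrg1*, a stress-responsive gene linked to differentiation, had 0.17 ± 0.20. All 4 genes lay above 0 and did not pass the selection. A second *P4ha1* probe was well above background on the ALDH-positive array alone, with signals of 12.03 and 19.8, and was at least 1.51-fold brighter there.

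*Vegfa*, the angiogenic growth factor, gave a different sign by probe. The probe near the 3′ end (NM_001025250) read 1183 and 1299, a log2 ratio of 0.14 ± 0.20. The probe at base 1193 of another transcript (NM_001025257) read 449 and 367, a log2 ratio of -0.29 ± 0.20. *Ero1l*, an endoplasmic reticulum oxidase named *Ero1a* in RefSeq, had 0.11 ± 0.20, and *Bnip3l*, the relative of *Bnip3* in mitophagy, had 0.04 ± 0.20 with 4 probes between -0.07 and 0.04. *Car12*, a second membrane carbonic anhydrase of tumours, read 4421 and 4344, a log2 ratio of -0.03 ± 0.20, and was the 1 other HIF target below 0 by its brightest probe. Under the 75th percentile shift *Car12* had 0.06, and with the median of each gene's probes *Vegfa* (-0.08) and *Bnip3l* (-0.02) also lay below 0. *Car9* exceeded *Car12* by 0.67 ± 0.29 on the log2 ratio scale.

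**Figure D2:**
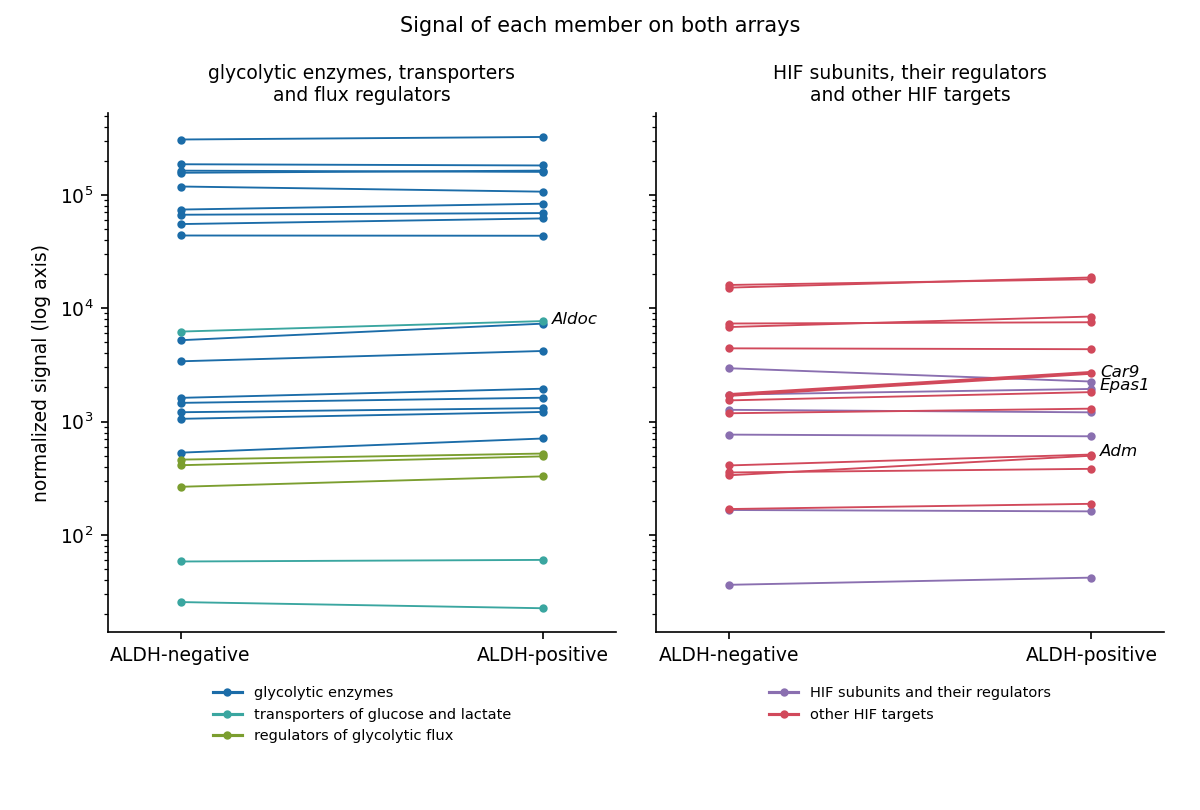
Normalized signal of each measured member on the ALDH-negative and ALDH-positive array (log axis), 1 line per gene, coloured by role. Levels of different genes come from different probes and are not compared. The *Car9* line runs from 1715 to 2688 and the *Epas1* line from 2951 to 2253, whereas most lines are nearly flat.

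The 250 bases before and 50 bases after the start of each gene (RefSeq, GRCm38.p6) were searched for the HIF core, spelled ACGTG or GCGTG on either strand. The RefSeq table held such a window for 38 of the 42 members and none for *Bnip3l*, *Epas1*, *Ndrg1* and *Slc2a3*. The core was present in at least 1 window of 32 of the 38 members, or 84.2%, and of 46.7% of all 27025 genes with a window. By role it was present in 14 of 17 glycolytic enzymes and in 9 of 10 other HIF targets. Windows of members were also richer in G and C, with a median of 62.2% against 52.7% of bases in all windows, and the core itself holds a CG. The median log2 ratio was 0.17 for the 31 measured members with the core and -0.02 for the 6 without it. The latter were *Car12*, *Eno2*, *Gpi1*, *Hif1an*, *Tpi1* and *Vhl*, with log2 ratios from -0.05 to 0.41. *Vhl* and *Hif1an* are HIF regulators, so this split overlaps with the difference between roles, and a part of the core in the ratios was not tested. A match of 5 letters is a description of the window and not evidence of binding.

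The windows below show the member that was selected (*Car9*), the nearest member to the limit (*Adm*), the glycolytic enzyme farthest above 0 (*Aldoc*, the first of its 2 windows), the member with the most cores (*Ldha*, the first of its 2 windows) and the carbonic anhydrase with none (*Car12*). They run 5′ to 3′ on the strand of the gene, with positions on GRCm38.p6, and capitals mark the core on either strand.
Car9 (chr4:43506776-43507075, plus strand): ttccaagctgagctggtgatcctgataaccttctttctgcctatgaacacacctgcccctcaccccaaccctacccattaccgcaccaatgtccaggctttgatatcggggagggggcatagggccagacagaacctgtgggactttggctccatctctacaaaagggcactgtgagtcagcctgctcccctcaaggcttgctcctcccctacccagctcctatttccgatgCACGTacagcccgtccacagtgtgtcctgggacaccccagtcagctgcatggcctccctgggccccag
Adm (chr7:110627407-110627706, plus strand): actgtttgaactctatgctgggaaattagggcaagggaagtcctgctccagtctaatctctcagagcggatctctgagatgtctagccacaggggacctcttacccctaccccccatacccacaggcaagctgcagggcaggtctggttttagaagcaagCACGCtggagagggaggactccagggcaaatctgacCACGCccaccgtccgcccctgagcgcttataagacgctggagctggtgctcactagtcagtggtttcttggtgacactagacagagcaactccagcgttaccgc
Aldoc (chr11:78322823-78323122, plus strand): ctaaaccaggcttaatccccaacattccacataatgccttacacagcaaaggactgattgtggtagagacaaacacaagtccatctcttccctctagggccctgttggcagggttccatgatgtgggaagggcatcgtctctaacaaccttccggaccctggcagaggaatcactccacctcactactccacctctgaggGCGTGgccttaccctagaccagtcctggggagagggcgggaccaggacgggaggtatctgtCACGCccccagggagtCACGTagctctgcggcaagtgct
Ldha (chr7:46845554-46845853, plus strand): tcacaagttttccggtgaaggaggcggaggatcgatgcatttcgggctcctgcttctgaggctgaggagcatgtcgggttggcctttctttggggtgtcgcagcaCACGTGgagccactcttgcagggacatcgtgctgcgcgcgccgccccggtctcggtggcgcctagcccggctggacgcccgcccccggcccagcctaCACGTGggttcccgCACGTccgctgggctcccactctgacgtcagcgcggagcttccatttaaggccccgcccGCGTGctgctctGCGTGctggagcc
Car12 (chr9:66713436-66713735, plus strand): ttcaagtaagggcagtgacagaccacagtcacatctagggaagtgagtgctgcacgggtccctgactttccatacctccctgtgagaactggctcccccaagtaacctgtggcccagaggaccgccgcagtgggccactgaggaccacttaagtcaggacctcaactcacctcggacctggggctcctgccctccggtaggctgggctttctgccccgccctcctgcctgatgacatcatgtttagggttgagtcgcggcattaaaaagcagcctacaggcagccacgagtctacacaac
*Car9* has a single core, on the other strand and beginning 18 bases before the start, and *Adm* has 2, beginning 90 and 54 bases before it. *Aldoc* has 3 in the window shown. *Ldha* has 7 yet showed a log2 ratio near 0, so the number of cores did not follow the size of the ratio among these genes. *Eno2*, with the second largest ratio of the glycolytic enzymes, has 0. The palindrome CACGTG, the E-box to which CLOCK binds, holds the core on both strands and was counted as 2 overlapping cores. It occurred in the windows of 6 members (*Bnip3*, *Hif1a*, *Ldha*, *Pfkfb3*, *Pfkm* and *Slc16a1*), or 15.8%, against 8.09% of all genes with a window. A single window with the palindrome was enough to count a gene. The 38 members had 52 windows and the 27025 genes 32851. The limits given for the core, the higher G and C content and a match that is not evidence of binding, hold here too.

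None of the 16 measured glycolytic enzymes passed the selection, where 1.37% of all measured genes were higher and 2.3% lower. Of the 16 enzymes, 12 lay above 0, or 75%, against 59.5% of all measured genes. The enzymes farthest above 0 were isoforms best known from neural tissue. *Aldoc*, aldolase C, read 5215 and 7303, a log2 ratio of 0.49 ± 0.20. Its Z-score of 2.57 was past the limit and its ratio of 1.40 was not. *Eno2*, the neuronal form of enolase, read 531 and 708, a log2 ratio of 0.41 ± 0.20.

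The widely expressed isoforms of both enzymes lay near 0. *Aldoa*, aldolase A, read 156371 and 163413, a log2 ratio of 0.06 ± 0.20, and *Eno1*, the general enolase, read 163272 and 159281 with -0.04 ± 0.20. *Aldoc* exceeded *Aldoa* by 0.42 ± 0.29 and *Eno2* exceeded *Eno1* by 0.45 ± 0.29 on the log2 ratio scale, which is more than the combined scanner error in both pairs. For lactate dehydrogenase the difference was within it, with *Ldhb* above *Ldha* by 0.19 ± 0.29. So it was for hexokinase, with *Hk2* above the brightest probe of *Hk1* by 0.27 ± 0.29. The other *Hk1* probes had log2 ratios of 0.17 and 0.14, above the 0.12 of *Hk2*.

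The 3 subunits of phosphofructokinase, the enzyme of the committed step, all lay above 0. *Pfkl* read 3398 and 4191, a log2 ratio of 0.30 ± 0.20. *Pfkm* read 1617 and 1947, a log2 ratio of 0.27 ± 0.20. *Pfkp* had log2 ratios of 0.20 ± 0.20 and 0.19 ± 0.21 by its 2 probes. The *Pfkm* probe was printed 10 times on each array, and the log2 ratios of the 10 spots, shifted to their normalized mean, ran from 0.19 to 0.37 with an SD of 0.07. All 10 spots lay above 0, and their SD was smaller than the scanner error of 0.20.

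Of the other steps, *Gpi1*, glucose-6-phosphate isomerase, had log2 ratios of 0.17, 0.23 and 0.24 by its 3 probes, each ± 0.20. *Pgk1*, phosphoglycerate kinase, had 0.17 ± 0.20, *Ldhb* 0.15 ± 0.20, *Hk2* 0.12 ± 0.20 and *Pgam1*, phosphoglycerate mutase, 0.05 ± 0.20. These ratios were all above 0 and most were within the scanner error. The array file places the *Pgk1* probe on chromosome 3, whereas the RefSeq gene lies on chromosome X, so signal from a near-identical copy cannot be told apart from the gene. *Pkm*, pyruvate kinase, was not found under that name. A probe named *Pkm2* in the files, with accession NM_001253883, read 81288 and 86693, a log2 ratio of 0.09 ± 0.20, and was left out of the counts.

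**Figure D3:**
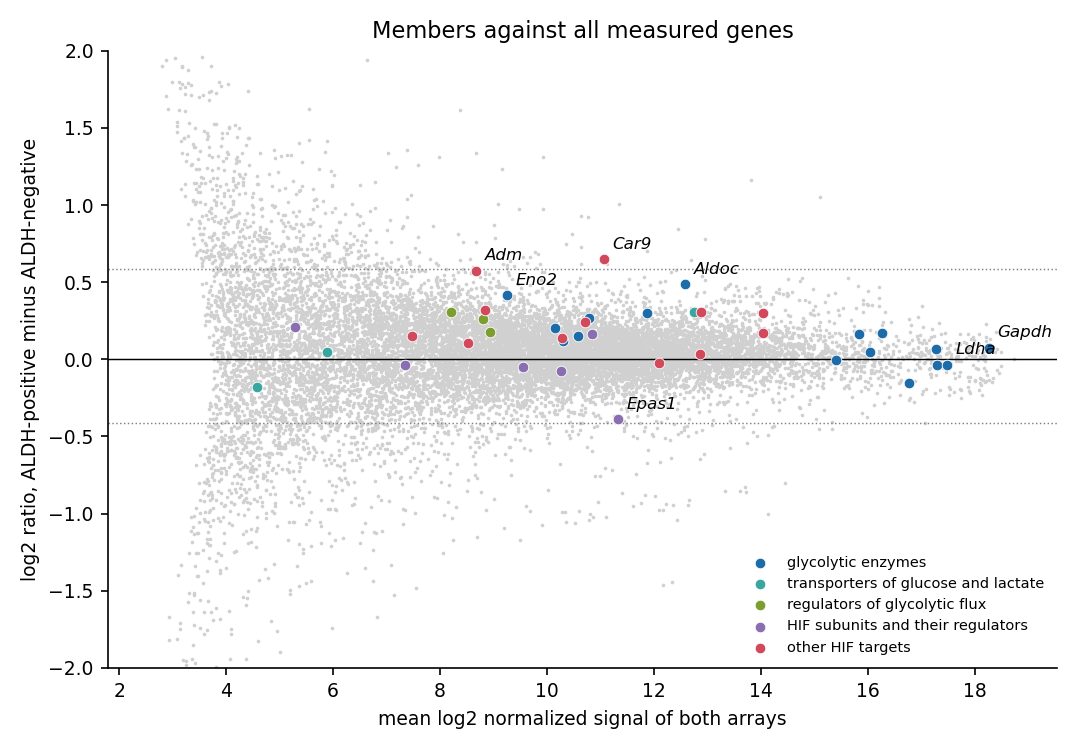
Log2 ratio (ALDH-positive minus ALDH-negative) against the mean log2 normalized signal of both arrays, with all measured genes in grey, the members coloured by role and the ratio limits of 1.5 and 0.75 dotted. *Car9* lies above the upper limit and *Adm* just under it, and the glycolytic enzymes at the right of the plot lie near 0. A further 268 genes outside log2 ratios of 2 in either direction are not drawn.

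The other 4 measured enzymes, *Tpi1*, *Ldha*, *Eno1* and *Hk1*, lay below 0 by their brightest probes, and *Tpi1* and *Gapdh* changed sign with the scaling. *Tpi1* moved from -0.01 to 0.05 under the 75th percentile shift. *Gapdh*, glyceraldehyde-3-phosphate dehydrogenase and a common reference gene, had 8 probes between -0.08 and 0.18 and a log2 ratio of 0.07 ± 0.20 by its brightest, which turned to -0.14 under the 75th percentile shift. The files place 2 of the 8 probes on chromosomes 7 and 8 and not on chromosome 6 with the others, so related sequences may share this signal. The brightest probe, which stands for *Gapdh*, is the one on chromosome 7. The brightest probe on chromosome 6 had a log2 ratio of 0.04 ± 0.20. *Hk1*, hexokinase 1, read 118319 and 106541 by its brightest probe (J05277), a log2 ratio of -0.15 ± 0.20. The 2 other *Hk1* probes (NM_001146100) read 425 and 477 with 0.17 ± 0.20, and 8359 and 9198 with 0.14 ± 0.20. The sign for *Hk1* therefore depended on the probe.

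*Ldha*, the lactate dehydrogenase subunit that HIF-1 is known to induce, read 185957 and 181425 by its brightest probe, a log2 ratio of -0.04 ± 0.20. Its probes at bases 351, 970 and 1755 of the transcript had log2 ratios of -0.31, -0.12 and -0.04, each ± 0.20. *Tpi1*, triosephosphate isomerase, had -0.27 ± 0.20 at base 634 and -0.01 ± 0.20 at base 1204. In both genes the probe nearer the 5′ end had the smaller ratio. The same held across the array, where the 3′-most probe exceeded the 5′-most by a median log2 ratio of 0.09 in 2276 transcripts with probes at least 300 bases apart, and lay above it in 64.6% of them. The 3′ probe of these transcripts was also brighter, by a median of 1.38 in mean log2 signal. Among the 6 member transcripts with such probes the median difference was 0.08, and it was above 0 in 4. Whether RNA length or signal level has a part in these probe differences was not tested.

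**Figure D4:**
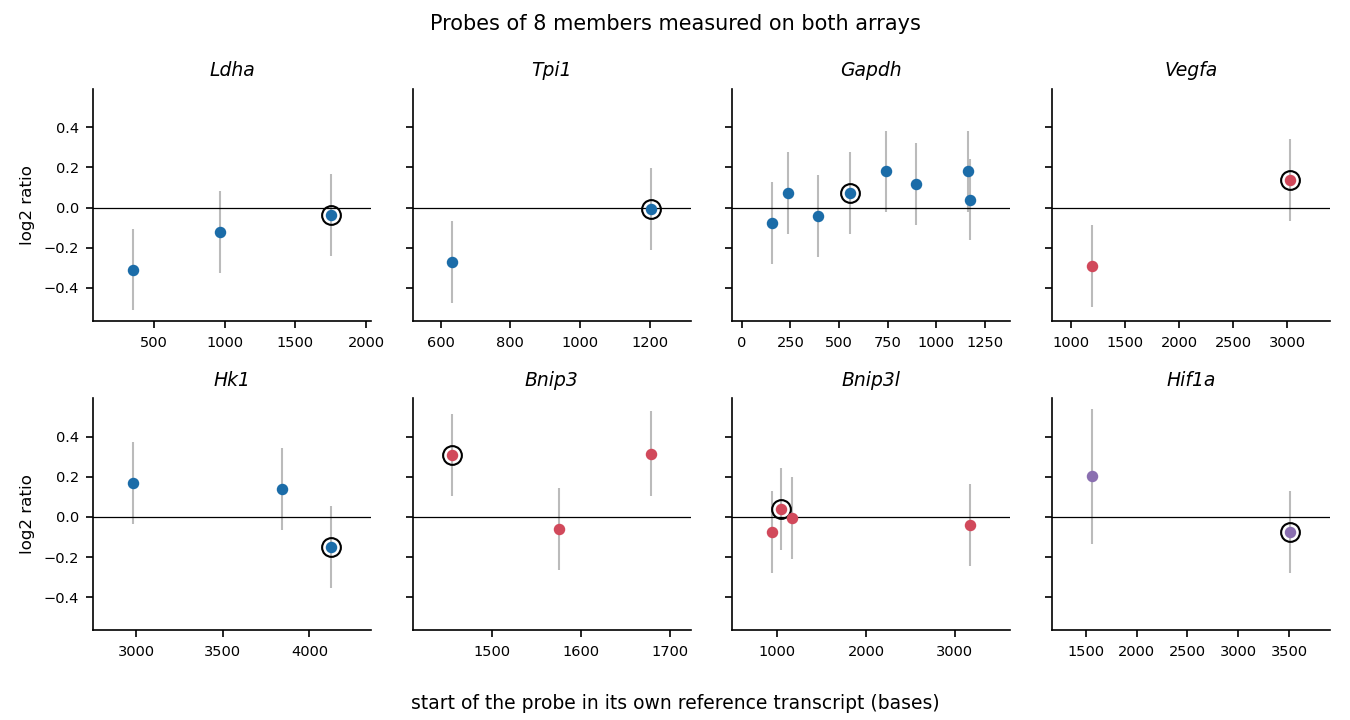
Log2 ratio (ALDH-positive minus ALDH-negative) of each probe measured on both arrays against the start of the probe in its own reference transcript, for 8 members, with the scanner error as bars and a ring around the probe that stands for the gene. *Ldha* runs from -0.31 at base 351 to -0.04 at base 1755, and *Hk1* and *Vegfa* have probes on both sides of 0. Probes of *Hk1*, *Gapdh*, *Vegfa* and *Hif1a* come from more than 1 accession.

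Of the transporters, *Slc2a1*, the basal glucose transporter GLUT1, read 6215 and 7690.2, a log2 ratio of 0.31 ± 0.20. *Slc16a1*, the monocarboxylate transporter MCT1, read 58.2 and 60.2, a log2 ratio of 0.05 ± 0.23. *Slc16a3*, the lactate exporter MCT4, read 25.5 and 22.5, a log2 ratio of -0.18 ± 0.30. The glucose importer thus lay above its scanner error and the lactate transporters within theirs. A second *Slc16a3* probe was well above background on the ALDH-negative array alone, with signals of 19.0 and 11.5, and was at least 1.498-fold brighter there. *Slc2a3*, the transporter GLUT3, was not well above background on either array.

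The regulators of flux all lay above 0, although none passed the selection. *Pfkfb3*, which makes the fructose-2,6-bisphosphate that activates phosphofructokinase, read 266 and 328, a log2 ratio of 0.31 ± 0.21. *Pdk1*, the kinase that inhibits pyruvate dehydrogenase, read 412 and 493, a log2 ratio of 0.26 ± 0.20. *Pfkfb4*, a relative of *Pfkfb3*, read 461 and 522, a log2 ratio of 0.18 ± 0.20. A second *Pfkfb3* probe near background read 13.2 and 5.47 and was well above background on the ALDH-negative array alone. Its bound was 1.04-fold, with a scanner error of 0.79 on the log2 scale, so this probe gives no clear direction.

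By their brightest probes, the mRNAs of the HIF alpha subunits did not lie above 0. *Hif1a* read 1268 and 1205, a log2 ratio of -0.07 ± 0.20, and a dim second probe (AK017853) had 0.20 ± 0.34. *Epas1* read 2951 and 2253, a log2 ratio of -0.39 ± 0.20, the lowest of all members. Its ratio of 0.763 fell just short of the limit of 0.75 and its Z-score was -1.37. The spot of this *Epas1* probe lies in the last eighth of the array, where 7.88% of measured probes were selected against 3.14% elsewhere. The 111 measured probes around it had a median log2 ratio of 0.02, and 2 of them were selected. In all, 13 measured members had a spot in this part, with a median log2 ratio of 0.11 against 0.17 for the other 27. Selected probes were more frequent around *Hif1a* (22 of 109), *Pgam1* (23 of 112) and *Hk1* (16 of 140). *Pgk1* had 15 of 137 and *Bnip3l* 14 of 126. The other *Epas1* probes, at bases 3188 and 5216 of the same transcript, were not well above background on either array. The former read 2.86 and 2.85 and the latter 7.74 and 10.2. The *Epas1* signal thus rests on a single probe, at base 3279.

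Of the regulators, *Egln1* read 36.3 and 42.0, a log2 ratio of 0.21 ± 0.27, and *Egln3*, itself induced by HIF, read 1728 and 1938 with 0.17 ± 0.20. *Vhl*, the substrate receptor of the ubiquitin ligase, had -0.05 ± 0.20, and *Hif1an*, the asparaginyl hydroxylase of HIF alpha subunits, had -0.04 ± 0.21. All 4 stayed within the scanner error.

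Of the further genes of the same pathways, *Stc1* and *Crebbp* passed the selection. Over all measured genes, 1.37% were higher and 2.3% lower, so such counts in short lists do not set these pathways apart. Of 30 measured further HIF targets, 0 were higher and 1 was lower, and the median log2 ratio was 0.08 with 21 above 0. The lower gene was *Stc1*, the secreted hormone stanniocalcin 1, which read 79.6 and 29.4 with a log2 ratio of -1.44 ± 0.25. Its probe starts at base 315 of the transcript, and 5′ probes tended to have smaller ratios across the array. A part of probe position in the *Stc1* ratio was not tested. *Selenbp1*, a selenium-binding protein gene, was well above background on the ALDH-positive array alone, reading 12.2 and 29.8, and was at least 2.26-fold brighter there. *Ccng2*, an atypical cyclin, read 51.0 and 75.3 with a log2 ratio of 0.56 ± 0.23 and did not pass the selection. The further HIF targets thus held genes on both sides of 0.

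Of 12 measured further genes of glycolysis and gluconeogenesis, 0 passed the selection, 9 lay above 0 and the median was 0.09. *Pgam2*, the muscle phosphoglycerate mutase, read 109 and 71.0 with a log2 ratio of -0.62 ± 0.21. *Pgm2*, a phosphoglucomutase, read 10091 and 13449 with 0.41 ± 0.20, and *Pfkfb2* read 48.9 and 62.2 with 0.35 ± 0.24. Beside shares of 1.37% higher and 2.3% lower over all measured genes, 0 of 12 says little about these genes.

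No gene of the pathways that branch from glycolysis passed the selection, where 1.37% of all measured genes were higher and 2.3% lower. All 8 genes of the pentose phosphate pathway were measured, 0 passed the selection and the median was 0.02. The gene farthest from 0 was *Rpia*, ribose-5-phosphate isomerase, at 0.33 ± 0.20, followed by *H6pd* at -0.13 ± 0.20 and *G6pdx*, the rate-limiting dehydrogenase, at 0.08 ± 0.20. Of 9 measured genes for the entry of pyruvate into mitochondria, 0 passed, and by their brightest probes all lay between -0.14 and 0.09. The outermost were *Pdk2* at -0.14 ± 0.24, *Dlat* at -0.14 ± 0.20 and *Pdp1* at 0.09 ± 0.20. The probes of 2 of these genes differed. A second *Pdk2* probe had -0.38 ± 0.28, and the other *Pdp1* probes had -0.22 ± 0.21 and -0.13 ± 0.20.

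Of 11 measured further HIF subunits, hydroxylases and VHL complex genes, 0 were higher and 1 was lower by the brightest probe of each gene, and the median was 0.00. The lower gene was *Crebbp*, a coactivator of HIF and many other factors, which read 6875 and 4950.0 with a log2 ratio of -0.47 ± 0.20. It was no longer lower with a ratio limit of 1.5 in both directions, under the 75th percentile shift, with a Z-score over all probes, or with the median of its probes, of which the second read 48.6 and 45.4 with -0.10 ± 0.24. *Arnt*, the beta subunit HIF-1β, gave different results by probe. Its brightest probe read 758 and 914, a log2 ratio of 0.27 ± 0.20, and did not pass the selection. A second probe on the same transcript (NM_001037737) read 290.3 and 449.6 with 0.63 ± 0.20 and a Z-score of 2.64, which is past the limits for higher genes. *Siah1a*, a ubiquitin ligase that acts on prolyl hydroxylases, had -0.34 ± 0.21 and did not pass.

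**Figure D5:**
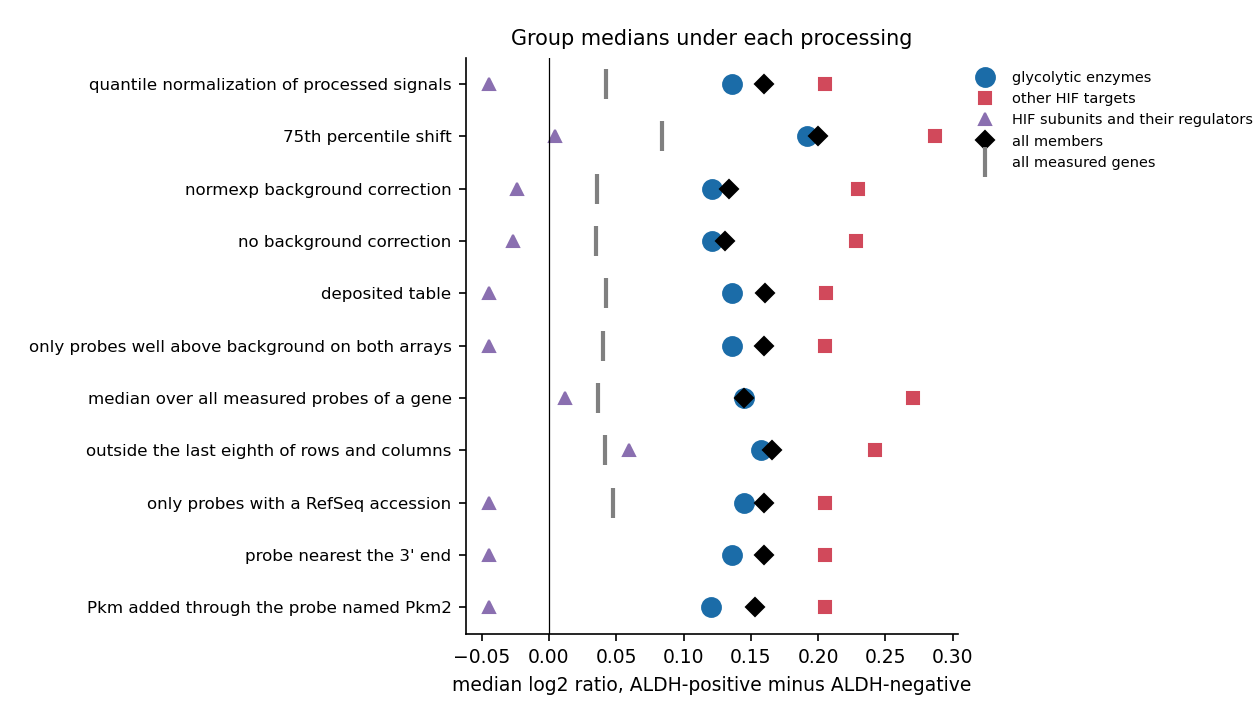
Median log2 ratio (ALDH-positive minus ALDH-negative) of all members, the glycolytic enzymes, the other HIF targets and the HIF subunits with their regulators under each processing, with the median of all measured genes as grey bars where it was recomputed. The other HIF targets lie to the right of the glycolytic enzymes in every row, while the HIF subunits and their regulators lie on either side of 0.

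Of 55681 probes, 26985 were well above background on the ALDH-negative array, 27503 on the ALDH-positive array and 25903 on both. The median log2 ratio before normalization was 0.49, which quantile normalization removed. As a check of the label, all 6 epithelial markers were measured, with a median log2 ratio of 0.29 and *Cldn7*, a tight junction claudin, higher at 0.85 ± 0.20. Of 8 leukocyte markers 4 were measured, with summed signals of 9951 and 6261, most of which came from *Itgam*. *Itgam* was lower by its brightest probe (7301 and 3795), while its other probes read 21.8 and 28.4 (log2 ratio 0.38 ± 0.34) and 24.3 and 15.3. The *Itgam* signal thus rests on a single probe. *Cd3e* and *Csf1r* had log2 ratios of -0.47 ± 0.20 and -0.34 ± 0.20, and *Cd68* had 0.44 ± 0.20. The defining marker *Ptprc* was not well above background on either array. Of 4 endothelial markers 2 were measured, with *Kdr* lower (7292 and 5394), *Pecam1* at 27.0 and 31.3 (log2 ratio 0.21 ± 0.30), and sums of 7319 and 5426. A *Kdr* probe nearer the 3′ end of the same transcript read 3.01 and 3.28 and was not well above background on either array. The endothelial sums thus rest mostly on a single *Kdr* probe. *Cdh5* and *Tek* were not well above background on either array. Of 6 fibroblast markers 3 were measured, with sums of 203 and 189. The part of other cell types in the values of the members was not tested.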

How the data were processed

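Total RNA of each sorted population was labelled with Cy3 and hybridized to 1 SurePrint G3 Mouse 8 × 60K array on the same slide. The RNA kit is ReliaPrep in the labels and RNeasy in the study's methods. The authors' scanner files hold background-subtracted spot intensity from Agilent Feature Extraction (10.7.1.1 in the file headers, 9.5.1.1 in the submitters' processing notes), and the authors' deposited table holds quantile-normalized intensity. Probe positions are on NCBI37. Here, control spots and population outliers were left out, signals under 1 were set to 1, log2 intensity of repeated spots was averaged, and the deposited signals of the 55681 probes were quantile-normalized over both arrays. The deposited table gave log2 ratios that differed from these by a median of 0.00043. The study's text does not define its Z-score, so it was computed against 250 probes on either side.

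The brightest measured probe stood for a gene. Symbols outside the members came from a GRCm38.p6 RefSeq table, which held the accession of 27229 probes. For a probe well above background on 1 array, a bound is printed in place of a ratio. It is the bright signal over the larger of the dim signal and the lowest signal well above background there. The bound leaves out the scanner error and is not a strict limit. In counts and medians the ratio of such a probe was used in full. All members may be named. Both signals are given for selected members and the 4 of each role farthest from 0, other probes where log2 ratios of a gene differed by over 0.3, and, of each further list, selected genes and the 3 farthest from 0. Members and lists were chosen with earlier results of these data known. Python 3.11.15, pandas 2.3.3 and limma 3.58.1 were used, and the processing was tested on simulated data. Arrays have no read depth, and their number limits the precision. Alternatives were a 75th percentile shift, normexp (offset 50), no background correction, the deposited table, genes measured on both arrays alone, the median of a gene's probes, the array without its last eighth of rows and columns, Z-scores over 100, 500 or all probes, and a ratio limit of 1.5 both ways. Added after seeing the data were probes with a RefSeq accession alone, the probe nearest the 3′ end, and *Pkm* through the probe named *Pkm2*.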

Additional observations from a re-analysis of the deposited data

How the results depend on the processing

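No paired analysis was possible because neither population had a second array. *Car9* was the only selected member under every processing but 2. With the 75th percentile shift, 2 members were higher, both of them other HIF targets (*Car9* and *Adm*), and when all probes set the Z-score, 0 members and 0 other HIF targets were. No member was lower under any of the 14 alternatives. The median of the members ran from 0.13 to 0.20, that of the glycolytic enzymes from 0.12 to 0.19 and that of the other HIF targets from 0.21 to 0.29. Of the 40 measured members, 25 lay above 0 and 5 below 0 under all settings that gave them a value, and 10 took either sign. When a gene was given the median of its measured probes, *Hk1* moved from -0.15 to 0.14 and *Vegfa* from 0.14 to -0.08. *Pfkfb3* moved from 0.31 to -0.48 and *P4ha1* from 0.15 to 0.44. The medians of *Pfkfb3* and *P4ha1* each include the full ratio of a probe well above background on 1 array alone. The scanner errors of these probes were 0.79 and 0.45, so both moves rest on signals near background. *Epas1* has no value without the last eighth of rows and columns. The causes were not tested. Signals near background and the single array per population limit every value.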
